A study of Luffa aegyptiaca with 4 samples.

Results

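A group of 89 transcripts of Luffa aegyptiaca, the sponge gourd, was already expressed in control samples and reached high abundance under heat stress. It was taken from a table of 48619 transcripts measured by RNA-seq. The members were selected on the measured values themselves: no LOX in the row name, a mean of at least 300 FPKM over the heat libraries, and a rise of at least 1 and under 5 in mean log2(FPKM + 1), heat minus control. FPKM counts fragments per kilobase of transcript, normalised to the fragments mapped in each library. The heat group had 2 samples treated with heat stress and the control group had 2 control samples, numbered as biological replicates 1 and 2. Both groups share the species and a source called only tissue. The labels name no cultivar, organ, plant age, temperature or duration. Whether the replicates came from separate plants is not stated either.

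Plants exposed to heat activate heat shock transcription factors, which switch on genes for chaperones and other protective proteins. Some such genes are almost silent until heat, while others already serve cells at ordinary temperature and are raised from a basal level. The members were expressed in the control samples, but which genes they are is not known from the table. It pairs 29 rows with a gene name, all lipoxygenases, and none of the members is among them. No function is therefore given to any member, and members are called by heat rank, their rank among the 89 by mean heat FPKM. In a bulk sample, more cells of a type and more RNA per cell cannot be told apart.

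Summed FPKM was 599611 and 551921 in heat replicates 1 and 2, and 560000 and 567901 in control replicates 1 and 2. Read depth is unknown. Over the 18186 transcripts tested, the median log2 change was -0.20, so a transcript with no change in FPKM lay slightly above the middle of the distribution. No organ or cell type marker could be looked up, because only lipoxygenase rows carry names.

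All 89 members were abundant enough to be tested, and all 89 were called higher under heat, against 30.9% of all transcripts tested (limma, Benjamini-Hochberg adjustment). A further 42.5% of all transcripts tested were called lower. In all 89 members both heat libraries lay above both control libraries, which was so for 37.5% of all transcripts tested. The selection used this contrast, so nothing is read from these counts. Across members the FPKM ran from 280.9 through a median of 486.1 to 3947 in heat replicate 1, and from 245.9 through 450.3 to 3456 in heat replicate 2. The corresponding values were 14.2, 67.1 and 625.4 in control replicate 1, and 16.7, 69.0 and 635.1 in control replicate 2. The median log2 change was 2.66, which is 2.86 above the general median of -0.20. By size, 37 members rose by 3 or more on the log2 scale, 30 by at least 2 and under 3, and 22 by less than 2. As a ratio of mean FPKM the change ran from 2.10-fold to 31.9-fold, with a median of 6.42-fold. The smallest separation between the groups, the lower heat value over the higher control value, was 1.66-fold.

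**Figure D1:**
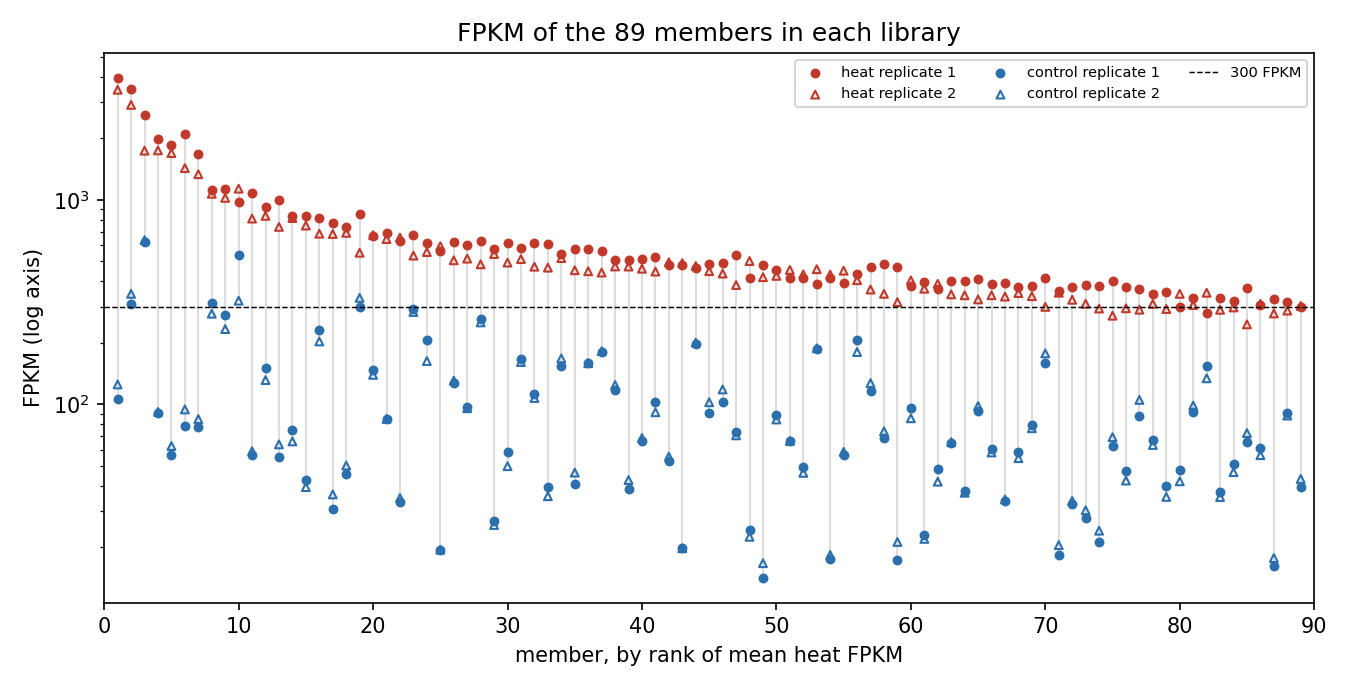
FPKM of each member (log axis) in the 2 heat libraries (red) and the 2 control libraries (blue), with members ordered by mean heat FPKM and a dashed line at 300 FPKM. Every red pair lies above its blue pair, and the first 7 members stand between 1335 and 3947 FPKM in the heat libraries.

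The member with the highest heat level was Luffa_aegyptiaca09301.t01. It stood at 3947 and 3456 FPKM in the heat libraries, against 107 and 125 FPKM in the controls. Its mean was 3701 ± 347 FPKM under heat and 115.9 ± 12.9 FPKM in control (SD, n = 2 each), a 31.9-fold difference. Its log2 change, 4.99 ± 0.18 (SE), was also the largest among the members. It moved from place 688 of the table by control mean to place 9 by heat mean. The member with the next largest change was Luffa_aegyptiaca05913.t01, of heat rank 5. It stood at 1860 and 1694 FPKM under heat and at 56.6 and 62.5 FPKM in control, which is a log2 change of 4.88 ± 0.14 (SE). Both were picked for their level or change among members chosen on the same contrast, so these values are a description.

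The other 5 of the 7 most abundant members had either a high or a moderate basal level. At heat rank 2, the member stood at 3473 and 2915 FPKM under heat and at 308 and 347 FPKM in control, a 9.75-fold difference. That of heat rank 3 stood at 2596 and 1741 FPKM under heat and at 625 and 635 FPKM in control, a 3.44-fold difference. These 2 had the highest and the third highest control means of all members. The members of heat rank 4, 6 and 7 had control values between 77.0 and 94.4 FPKM and heat values between 1335 and 2101 FPKM. Their ratios of mean FPKM were 20.5-fold, 20.4-fold and 18.6-fold. Below heat rank 7 the levels fell away: the members of heat rank 8, 9 and 10 had mean heat levels of 1092, 1078 and 1054 FPKM, and the remaining 79 had mean heat levels of at most 945.6 FPKM.

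Control values were least reproducible for the member of heat rank 10. It stood at 973 and 1134 FPKM under heat, against 536 and 321 FPKM in control. The control libraries differed by 0.74 on the log2 scale, the widest control difference among the members and the single one over 1.5-fold. Its log2 change was 1.34 ± 0.28 (SE), and it was 0.97 without control replicate 2. It was no longer called higher without control replicate 2 (limma, adjusted p = 0.104), without heat replicate 1 (limma, adjusted p = 0.0640) or without heat replicate 2 (limma, adjusted p = 0.0839).

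The basal level was well above that of most transcripts. The median control mean of the members was 68.7 FPKM, against 9.95 FPKM for all transcripts tested. All 89 exceeded that general median, and 57 exceeded the 90th percentile of 54.7 FPKM. The rule requires a high heat level and limits the rise, so a lower bound on the basal level is built into the choice. One member, of heat rank 3, was among the 100 most abundant transcripts by control mean (place 81), and 27 were among the 100 most abundant by heat mean. The lowest basal level was that of the member of heat rank 49, at 480 and 418 FPKM under heat and 14.2 and 16.7 FPKM in control. Next came the members of heat rank 87 and 54, with control values between 16.2 and 18.3 FPKM and heat values between 278 and 431 FPKM.

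Members with a lower basal level had the larger change. The 10 members with a control mean under 25 FPKM had a median log2 change of 4.25, and the 20 members from 25 to 50 FPKM one of 3.37. The median was 2.56 over the 32 members from 50 to 100 FPKM, 1.72 over the 18 members from 100 to 200 FPKM and 1.75 over the 9 members at 200 FPKM or more. Across members, Spearman's rho between control mean and log2 change was -0.80. Both quantities contain the control level, and the heat floor together with the upper limit of 5 shapes the relation, so it is a description of the group. Heat and control means had a rho of 0.39. The heat floor and the limits on the change shape this relation too, so it is also a description. The interquartile range of the members was 364 to 605 FPKM under heat and 41.3 to 121 FPKM in control, and the floor of 300 FPKM limits the heat range from below.

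**Figure D2:**
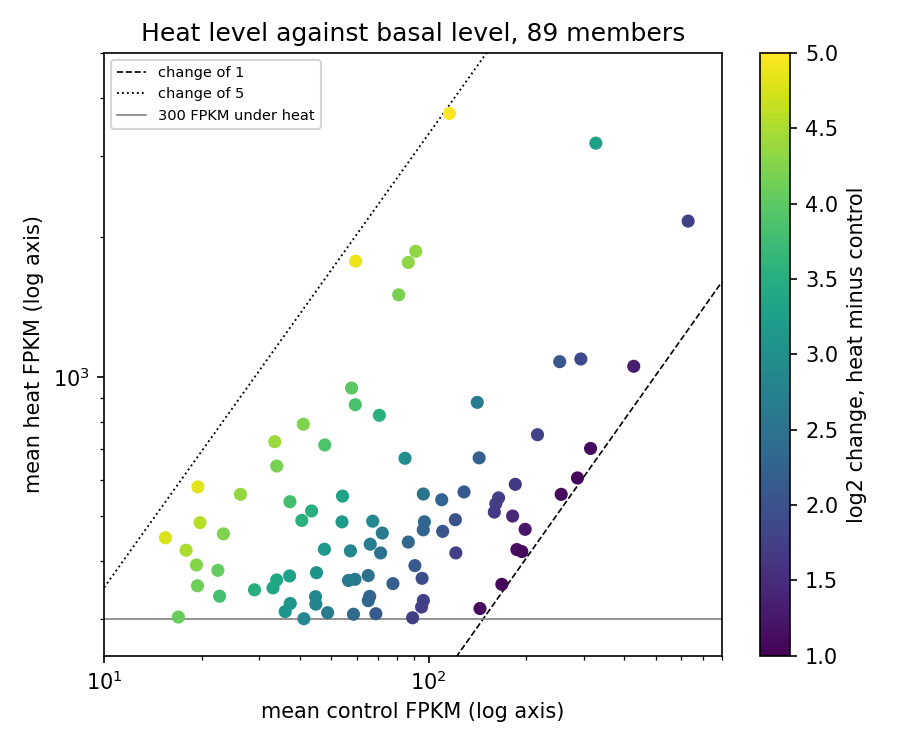
Mean heat FPKM against mean control FPKM (both log axes) for the 89 members, coloured by log2 change, with the limits of the selection drawn as lines. Most members lie in a band just over the 300 FPKM floor, and the member of heat rank 1 lies at the upper limit with a change of 4.99.

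The smallest rises belonged to members with a high basal level. For heat rank 23 the member stood at 676 and 534 FPKM under heat and 292 and 283 FPKM in control, a log2 change of 1.06. The members of heat rank 70 and 28 had changes of 1.06 and 1.11. Just outside the lower limit lay transcripts with changes of 0.89, 0.88 and 0.83. At the upper limit the values were 4.99, 4.88 and 4.82 inside, and 5.01, 5.12 and 5.42 outside. At the heat floor the mean heat levels were 300.4, 301.9 and 302.9 FPKM inside, and 298.9, 298.4 and 293.7 FPKM outside. Transcripts of similar values thus lay on both sides of each limit.

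The members' share of the library grew with them. They held 10.1% and 9.56% of summed FPKM in heat replicates 1 and 2, against 1.65% and 1.58% in control replicates 1 and 2. The mean share was 9.84 ± 0.40% under heat and 1.62 ± 0.05% in control (SD, n = 2 each), a gain of 8.23 percentage points and a 6.09-fold difference. The rule fixed the direction of this difference, so it is a description. Because the share is relative to all transcripts of the library, the gain cannot show how much RNA a cell held.

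The gain was spread over many members. All 89 gained share, by between 0.0297 and 0.622 points with a median of 0.0641. The member of heat rank 1 made up 7.56% of the group's gain, the members of heat rank 1 to 7 together 30.6%, and the other 79 below heat rank 10 together 64.6%. The 20 largest gains added up to 50.2% of the total. By basal level, the 32 members with a control mean of 50 to 100 FPKM, the most numerous class, gave the largest part, 36.7%. The 10 members under 25 FPKM gave the smallest, 8.37%, and the 9 members at 200 FPKM or more gave 17.1%.

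Across the whole table, 13353 rows gained share and together gained 45.4 percentage points. The 89 members, 0.667% of those rows, took 18.1% of the points. A rise to at least 300 FPKM was required of them, so a large part of the points is built into the choice. At the same heat level, 64 other transcripts with a log2 change of 5 or more held 13.8% and 13.3% in the heat libraries, against 0.0433% and 0.0456% in the controls. The remaining 79 transcripts of that heat level, with a change under 1, held 13.6% and 11.0% under heat, against 19.4% and 20.7% in control. The members thus held a smaller share of the heat libraries than either of these other sets, although they were the most numerous.

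**Figure D3:**
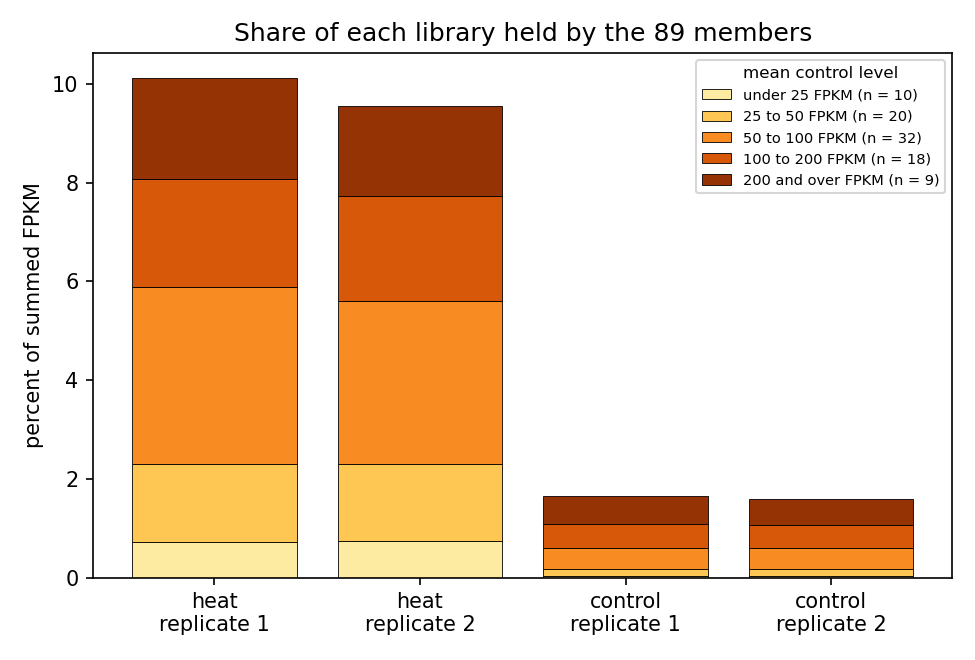
Percent of summed FPKM held by the 89 members in each library, with bar segments for classes of mean control FPKM. The heat bars reach 10.1% and 9.56% and the control bars 1.65% and 1.58%.

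Most members were higher in heat replicate 1 than in heat replicate 2. The selection used the mean of the heat libraries and not their difference. Heat replicate 1 was higher in 70 of the 89 members as deposited, with a median log2 difference of 0.17 (interquartile range 0.07 to 0.33). In the controls replicate 1 was higher in 41 of the 89, with a median difference of -0.01. Across all transcripts tested the median heat difference was -0.02. The median absolute difference of the members was 0.20 in the heat pair and 0.12 in the control pair. A difference over 1.5-fold occurred in 2 members in the heat pair and in 1 in the control pair. With 1 pair of libraries per group, none of these differences was tested.

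The widest heat difference was 0.62 on the log2 scale, in the member of heat rank 19, at 849 and 551 FPKM in heat replicates 1 and 2, against 299 and 331 FPKM in control. Next came the member of heat rank 85, at 370 and 246 FPKM under heat, against 65.2 and 72.3 FPKM in control. A difference of 0.58 was found for the member of heat rank 3, with 2596 and 1741 FPKM under heat. In the opposite direction, the member of heat rank 82 stood at 281 and 351 FPKM under heat, against 154 and 134 FPKM in control, a heat difference of -0.32. For each of these 4 members both heat values remained above both control values.

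The difference was shared with other abundant transcripts and was not the same in all. In the 79 transcripts of the same heat level with a change under 1, replicate 1 was higher in 78, by a median of 0.34. In the 64 with a change of 5 or more it was higher in 40, by a median of 0.13 with an interquartile range of -0.18 to 0.31. In 302 transcripts with a mean heat level from 100 to under 300 FPKM and a change of at least 1 and under 5, the median was 0.13. Summed FPKM differed between the heat replicates in the same direction, by 0.12 on the log2 scale, and the 100 most abundant rows of each library held 28.2% in heat replicate 1 and 24.8% in heat replicate 2. The members' median difference was 0.05 after scaling every library to the same summed FPKM, with 54 of 89 higher in replicate 1. It was 0.24 after median-of-ratios scaling, with 79 of 89 higher in replicate 1. It turned to -0.01 after quantile normalization, which gives every library the same set of values, with 41 of 89 higher in replicate 1. The part these library-wide differences play in the members' values was not tested further.

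**Figure D4:**
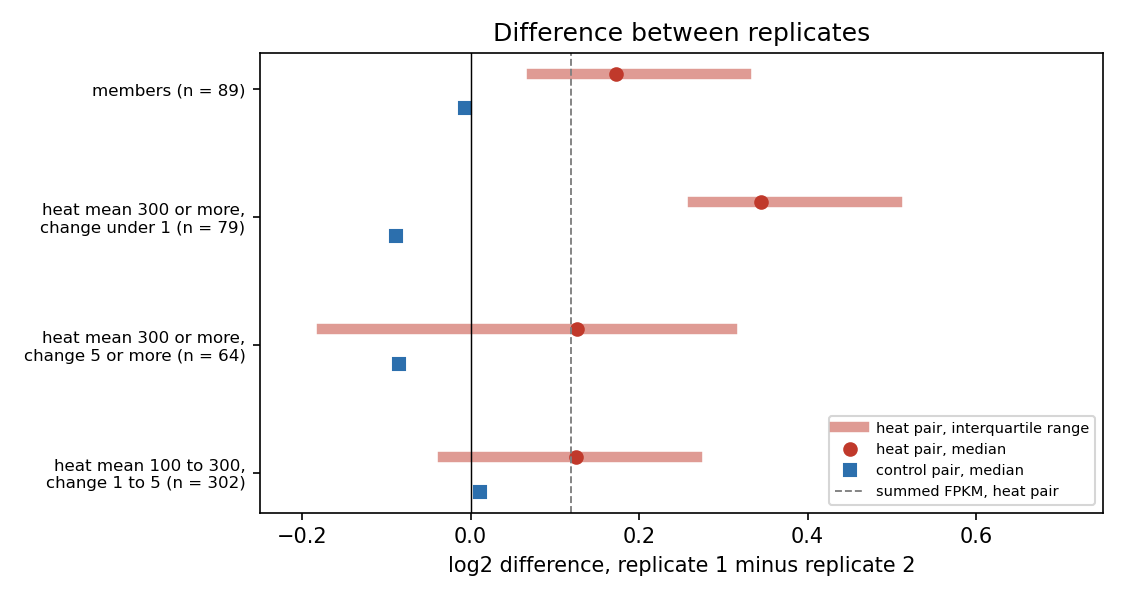
Log2 difference between replicates 1 and 2 in the heat pair (red, median with interquartile range) and the control pair (blue, median) for the 89 members and 3 other sets of transcripts, with the difference in summed FPKM of the heat pair as a dashed line. The heat median of the members, 0.17, lies between those of the sets with a change under 1 (0.34) and of 5 or more (0.13).

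Transcripts whose ID number stands next to that of a member tended to move upward too. The ID numbers run to 48614 with 24 of them absent among the unnamed rows, and no source used here says whether they follow the genome. The values of these neighbours played no part in the selection of the member beside them. The rule was applied to the neighbours too, and none of them met it. At a distance of 1 number there were 178 neighbours, none of them a member, and 116 passed the minimum level for testing. Among them 61 (52.6%) were called higher under heat, 32 (27.6%) lower and 23 in neither direction (limma, p-values adjusted across the 18186 transcripts). The background was 30.9% higher and 42.5% lower. After median-of-ratios scaling it was 37.0% higher and 36.2% lower, with 56.4% of the tested neighbours called higher. The median log2 change of the 116 was 0.48, against -0.20 for all transcripts tested, and 34.5% of them had a log2 change of 1 or more, against 19.3%.

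The share called higher was smaller at larger distances. At a distance of 2 numbers 37.9% of 95 tested neighbours were called higher, at 3 to 5 numbers 30.5% of 302, and at 50 numbers 23.3% of 90. The neighbours of transcripts at the same heat level differed with the change of the transcript they stood beside. Beside the 79 with a change under 1, 26.4% of 91 tested neighbours were called higher, and beside the 64 with a change of 5 or more, 68.8% of 64. Among the members themselves, the neighbours of those that rose by 3 or more were called higher in 52.9% of 51 tested cases, and of those that rose by less than 2 in 59.3% of 27. These percentages are descriptions, and the differences between them were not tested.

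**Figure D5:**
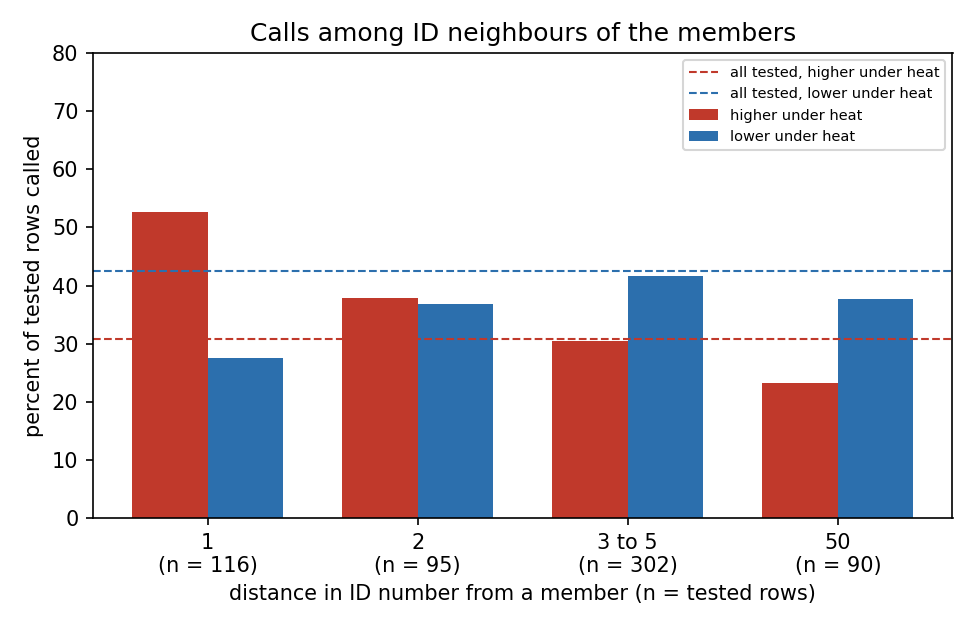
Percent of tested transcripts called higher (red) or lower (blue) under heat at ID distances of 1, 2, 3 to 5 and 50 from a member, with dashed lines for all transcripts tested. The red bar is tallest at distance 1, at 52.6%, where the blue bar is at 27.6%.

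Most of the rising neighbours were much less abundant than the member beside them. This was largely set by the selection, which required a mean of at least 300 FPKM of every member under heat. A neighbour at that level with a change within the limits would itself be a member. The 61 called higher had a median heat mean of 33.0 FPKM, and 41 of them stood under 10% of the heat mean of their member. No source used here gives the strand setting or the treatment of reads that overlap adjacent genes, so reads shared between a member and its neighbour cannot be told apart. A few neighbours came closer to the level of the member. The 2 with a heat mean of at least 300 FPKM stood beside the members of heat rank 40 and 15. Both belong to the 64 transcripts of that heat level with a log2 change of 5 or more. Beside the member of heat rank 40, a neighbour stood at 450 and 408 FPKM in the heat libraries, and was listed at 0 in control replicate 1 and at 0.472 FPKM in control replicate 2. Its heat mean was 87.9% of that of the member. The neighbour of the member of heat rank 15 stood at 662 and 654 FPKM under heat and at 3.81 and 2.68 FPKM in control, so that its log2 change was 7.29 ± 0.15 (SE; limma, adjusted p = 2.66e-06). At 53.1% of the heat mean of its member, the neighbour of heat rank 30 stood at 311 and 276 FPKM under heat and at 43.2 and 37.1 FPKM in control, a log2 change of 2.84, beside 3.32 for the member.

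Other neighbours moved the opposite way. The largest fall beside a member was that of Luffa_aegyptiaca38077.t01, at 1.99 and 1.36 FPKM under heat and 20.7 and 19.4 FPKM in control, which gave a log2 change of -2.99 ± 0.17 (SE; limma, adjusted p = 3.11e-05). It stood beside the member of heat rank 44. The next was Luffa_aegyptiaca09340.t01, beside the member of heat rank 6, at 1.07 and 0.781 FPKM under heat and 10.6 and 10.3 FPKM in control, which gave a log2 change of -2.58 ± 0.16 (SE; limma, adjusted p = 4.53e-05). Of the 89 members, 51 had at least 1 neighbour called higher and 10 had both. No such count over all transcripts is given here, so nothing is read from it about the members.

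Members also stood near each other in a few places. No member had another at a distance of 1, and 7 of the 89 (7.87%) had another within 10 numbers. This is near the 5.49% of the 18085 unnamed transcripts tested that are not members, so it is not read as a trait of the members. A pair of members 5 numbers apart, of heat rank 45 and 46, had almost the same values: 487 and 448 FPKM under heat with 90.1 and 102 FPKM in control for the first, and 492 and 436 FPKM under heat with 103 and 118 FPKM in control for the second. Whether the pair is similar in sequence is not known here. A group of 3, with gaps of 10 and 7 numbers, was not uniform. Its members of heat rank 29 and 48 rose by 4.35 and 4.23 on the log2 scale and had control means of 26.3 and 23.3 FPKM, whereas the member of heat rank 70 rose by 1.06 and had a control mean of 168 FPKM. Luffa_aegyptiaca09301.t01, of heat rank 1, stood 4 numbers from the member of heat rank 53, which was at 389 and 458 FPKM under heat and 186 and 188 FPKM in control, a log2 change of 1.17 against 4.99.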

How the data were processed

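Per the submitters' processing notes, fastp 0.20.1, HISAT2 2.2.1 and StringTie 2.0 were used. The authors deposited 1 table of FPKM values with 1 column for each of the 4 libraries and 48619 rows. No source used here gives the genome build, the annotation or the settings. Each column matched 1 sample by its title, and 0 columns of other samples were present. No common step worth 1 read was found: among values under 0.3 FPKM the commonest ratio between 2 libraries held at most 0.791% of rows, in bins of 0.003 on the log2 scale. Depth is therefore unknown, and no counting interval is given.

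Values were analysed as log2(FPKM + 1), a scale that understates changes near 1 FPKM. Rows that averaged 1 FPKM or more over the libraries were fitted with limma 3.58.1 in R 4.3.3, with group as the only term and variance moderation along a trend, as a two-sided test with Benjamini-Hochberg adjustment over all 18186 and a threshold of 0.05. The p-values measure the spread between these samples, which may be technical. The fit recovered known changes when tested on simulated data. The members, lists and classes were chosen with earlier results of these data known. Named by ID were the member with the highest heat mean, the member with the next largest change, and the 2 neighbours with the largest falls. Other members were described by heat rank, at the extremes of each measure. Members were counted from the selection rule alone. Alternatives covered the pseudocount, the filter, scaling, moderation, a replicate block, each library left out, the heat floor, the share's denominator and the ID distance.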

Additional observations from a re-analysis of the deposited data

How the results depend on the processing

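No alternative turned the direction of a member. The selection used this contrast, so nothing is read from these directions or from the members' calls below. All 89 were called higher in the 8 alternative fits with all 4 libraries, and 84 to 88 were when 1 library was left out, where a lone sample is taken to vary as the other group does. The calls lost there were those of the members of heat rank 3, 19, 23 and 70 without control replicate 1, of heat rank 3, 10, 19, 23 and 28 without control replicate 2, and of heat rank 10 also without heat replicate 1 and, separately, without heat replicate 2. The median log2 change was 2.91 after median-of-ratios scaling and 2.55 after quantile normalization, against 2.66, with the median of all tested transcripts at 0.02 and -0.01 in these settings, against -0.20. Relative to that median the members' change was 2.88 and 2.56, against 2.86. The median basal level was 62.8 and 70.8 FPKM under the same settings, against 68.7, and 67.1 to 69.0 with either control left out. The number of members was 149 with a heat floor of 200 FPKM and 37 with one of 500 FPKM. It was 70 to 103 under the other settings, with 70 to 88 of the 89 shared in those that changed the scaling, required the floor in each heat library or left out a library. Relative to the rows that are not members, the gain in share was 9.27 percentage points, and it was 7.94 to 8.51 points under the other denominators and with a library left out. The median difference between the heat replicates was 0.24 after median-of-ratios scaling, 0.0534 at equal summed FPKM and -0.0135 after quantile normalization, against 0.17. The neighbours called higher made up 43.5% to 56.4% in the 12 alternative fits, each time above the share of all transcripts tested in that fit, which ran from 23.6% to 37.0%. They made up 46.0% within an ID distance of 2, 36.8% within 5 and 23.3% at 50, against 30.9%. Over all transcripts, 9687 to 14924 were called, against 13352. With a replicate block 13149 were called, and the block changed no member's call. Same-numbered libraries deviated with a correlation of -0.07 across transcripts, and the labels do not say that the numbers pair. Depth is unknown, so the counting error of low values cannot be given.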

Other observations

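With the replicates as numbered, the members' heat pair difference (replicate 1 minus 2) was inversely related to their control pair difference. Across the 89 members, Pearson's r between the heat and the control difference was -0.40 and Spearman's rho -0.35, against a Pearson's r of -0.07 across all 18186 transcripts tested. The member of heat rank 10, with 973 and 1134 FPKM in heat replicates 1 and 2 and 536 and 321 FPKM in control replicates 1 and 2, had the widest control difference. The sign depends on how the replicates are numbered, and the labels do not say that the numbers pair across groups. No set of the same heat level was compared. Each value rests on the same 4 libraries, so the points are not independent, and no test was made.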
